A study of Mus musculus with 4 samples.

Results

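The nuclei described here were selected by marker genes of inhibitory interneurons of the cerebellum, from single-nucleus RNA libraries of snap-frozen mouse brain hemispheres. A nucleus was a member if it had at least 1 UMI (a counted RNA molecule) of Gad1 or Gad2 and at least 1 UMI of at least 3 of 8 panel genes, namely Ntn1, Gldc, Kit, Megf10, Tfap2b, Pax2, Tfap2a and Tg. By this rule 276 of the 16076 nuclei that passed the quality filters were members. In a clustering without the genes of the rule, 206 members (74.6%) lay in 1 cluster. A further 35 lay in a cluster with glycinergic markers and low Rora, and 35 were spread over glial and other clusters. All 276 are called interneuron nuclei here by the rule alone. The Ago2 cKO group was 2 libraries of genotype Slc17a6-Cre, Ago2 flox/flox, and held 50 and 56 members in replicates 1 and 2. The Ago2 WT group was 2 libraries of genotype Slc17a6-Cre, Ago2 wt/wt, and held 65 and 105 members in replicates 1 and 2. The labels' protocol names hemispheres as the tissue, while the series' design text names cortex, so which share of the loaded nuclei was cerebellar by design is not settled. All 4 libraries came from untreated C57BL/6 mice at postnatal day 14, and the controls carried the Cre driver as well. The driver gene Slc17a6 encodes the vesicular glutamate transporter VGLUT2 of excitatory neurons, so the design aims the deletion of Ago2, an Argonaute protein that binds miRNAs, at other cells than these. Separate mice per library are not stated, so every p measures the spread between libraries, which may be technical.

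Cerebellar inhibitory interneurons arise from progenitors in the ventricular zone that express Ptf1a, and their dividing precursors carry Pax2 as they cross the white matter in the first weeks after birth. They settle as basket and stellate cells of the molecular layer, which inhibit Purkinje cells, as Golgi cells of the granular layer, which inhibit granule cells, or as interneurons near the Purkinje cell layer. In the mouse molecular layer, Sorcs3, Ptprk and Grm8 mark a kind of interneuron that inhibits Purkinje cells, while Nxph1 and Cdh22 mark a kind that mainly inhibits other interneurons.

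The libraries held 10845009 and 11439733 UMIs in Ago2 cKO and 13107920 and 29317266 UMIs in Ago2 WT, and after filtering 3314 and 3259 nuclei in Ago2 cKO and 3344 and 6159 nuclei in Ago2 WT. The median member had 2882.5 and 3029 UMIs in Ago2 cKO, against 3660 and 3666 UMIs in Ago2 WT, so the members of the Ago2 WT libraries were measured more deeply. Summed over members, the libraries held 172340 and 205190 UMIs in Ago2 cKO, against 287543 and 501933 UMIs in Ago2 WT. Between any pair of libraries 3 to 10 barcodes were shared, of which 0 were members. A feature named CRE in the reference had 0 UMIs in each of the 4 libraries, which allows at most 0.277 CPM in the smallest one. Ago2 WT replicate 1 stood apart in mitochondrial RNA: 17.8% of its barcodes exceeded the maximum of 5% mitochondrial UMIs, against 5.64% to 8.78% in the other 3 libraries.

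The genes of the rule chose the nuclei, so their levels are a description and were not tested between the members and other nuclei. Levels are given in CPM, a gene's UMIs scaled to the summed UMIs of all nuclei of a set in 1 library, and are compared between nuclei and not between genes, because nuclear counts depend on gene length. The comparison set was 1403 other nuclei with at least 2 Gad1 or Gad2 UMIs and at most 1 panel gene, called other Gad nuclei here. They had a median of 4906 UMIs, against 3447 UMIs in the members. Gad1, the main GABA-synthesizing enzyme, had a UMI in 83% of members and stood at 458 and 434 CPM in Ago2 cKO members and at 410 and 385 CPM in Ago2 WT members. Gad2, its synaptic paralog, had a UMI in 62.3% of members, at 412 and 175 CPM in Ago2 cKO and 292 and 227 CPM in Ago2 WT.

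Ntn1, the secreted guidance cue netrin 1, had a UMI in 89.1% of members and averaged 962 ± 128 CPM in members and 34.2 ± 3.05 CPM in other Gad nuclei (SD, n = 4 libraries). Kit, the receptor for stem cell factor on molecular layer interneurons, averaged 359 ± 62.2 CPM in members and 17.9 ± 6.09 CPM in other Gad nuclei. Gldc, the glycine decarboxylase, averaged 361 ± 125 CPM in members and 3.96 ± 0.918 CPM in other Gad nuclei, and Megf10, a transmembrane receptor also found in astrocytes, 444 ± 89.5 CPM in members and 7.03 ± 2.77 CPM in other Gad nuclei. Gldc and Megf10 are shared with astroglia: nuclei with at least 4 of 6 astroglial markers, 447 in all, averaged 85.8 ± 24.3 CPM of Gldc and 144 ± 11.0 CPM of Megf10. The transcription factors had fewer UMIs. Tfap2b had a UMI in 31.9% of members at 133 ± 43.8 CPM, against 5.77 ± 2.77 CPM in other Gad nuclei, and Tfap2a in 24.3% at 75.3 ± 11.3 CPM, against 0.508 ± 0.630 CPM. Pax2, the lineage transcription factor (chromosome 19 of GRCm38, 44756045 to 44837871), had a UMI in 32.6% of members at 172 ± 76.9 CPM, against 10.7 ± 7.74 CPM in other Gad nuclei. Tg, the thyroglobulin gene, had a UMI in 39.9% of members at 176 ± 62.4 CPM, against 2.41 ± 1.72 CPM.

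**Figure D1:**
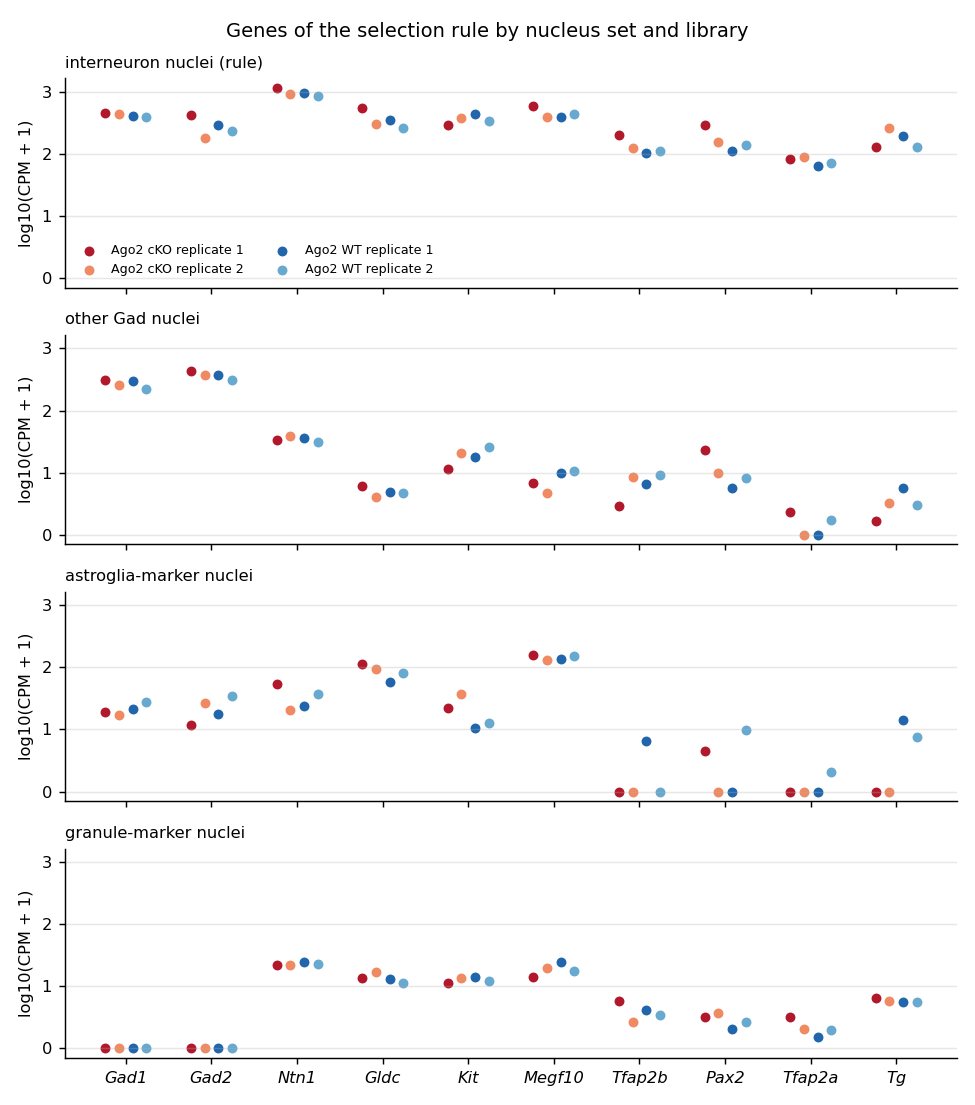
Levels of the 10 genes of the rule as log10(CPM + 1) on the vertical axis, 1 point per library, in the interneuron nuclei, other Gad nuclei, nuclei with at least 4 of 6 astroglial markers and nuclei with at least 2 of 5 granule cell markers and no Gad UMI. The 8 panel genes stand higher in the interneuron nuclei than in the other 3 sets in each library, as the rule requires, while Gldc and Megf10 are also present in the astroglia-marker nuclei.

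At the threshold of the rule, 98 members had exactly 3 panel genes and a median of 2978.5 UMIs, and 195 nuclei just outside it had exactly 2 panel genes and a median of 5024 UMIs. A further 123 nuclei had at least 3 panel genes but no Gad UMI. To see where the members fall without the genes that chose them, all kept nuclei were clustered on 1982 variable genes with the genes of the rule left out. Of the 28 clusters, cluster 17 with 339 nuclei held 206 members, which is 74.6% of the members and 60.8% of the cluster. Its leading genes were the lncRNA genes Gm26688 and Gm12198 together with Tfap2a, Pax2, Tfap2b, Tg, Ntn1 and Sla, 5 of them panel genes. The rule chose most nuclei of this cluster by the panel genes, so their lead does not bear on the name. Of nuclei with a Gad UMI, 16.4% of those with exactly 2 panel genes, 57.1% of those with exactly 3 and 82.1% of those with exactly 4 lay in this cluster. The 133 nuclei of the cluster outside the rule had a median of 1992 UMIs, against 2991.5 UMIs for the members within it, and 84 of them had no Gad UMI.

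The members outside cluster 17 were of 2 kinds. Cluster 7, led by Glra1, the adult glycine receptor subunit, and Baiap3, held 35 members, and 35 more were spread over the rest of the 14 clusters that held a member besides cluster 17. Among these, cluster 20, led by the astroglial genes Acsbg1 and Fgfr3, held 9, and cluster 19, led by the Purkinje gene Pcp2, held 5. The members in cluster 7 were deep nuclei with a median of 5520 UMIs, and 80.0% of them had a Pax2 UMI, against 25.7% of the members in cluster 17. Slc6a5, the neuronal glycine transporter, had a UMI in 40.0% of the members in cluster 7 and in 8.25% of those in cluster 17, and Klhl1 in 42.9% and 4.37%. Glra1 had a UMI in 34.3% of the members in cluster 7 and in 0 of the 206 in cluster 17, which allows a share of up to 1.46%. The hindbrain position genes Hoxa3 and Hoxb3 had 3 and 1 UMIs in the members of cluster 7 and 0 in those of cluster 17. Rora, an orphan nuclear receptor needed for Purkinje cell and interneuron maturation, stood at 6543 CPM in the members of cluster 7 and at 44671 CPM in those of cluster 17. The rule therefore took in, beside the nuclei of cluster 17, a group with glycinergic markers and lower Rora.

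The 35 members outside clusters 17 and 7 had a median of 4919 UMIs and higher levels of glial genes. Slc1a2, the astrocyte glutamate transporter, stood at 1183 CPM in them and at 122 CPM in the members of cluster 17, and Mbp, the myelin basic protein gene, at 655 CPM and 201 CPM. These nuclei were 6% and 10.7% of the members in Ago2 cKO (3 and 6 nuclei) and 18.5% and 13.3% in Ago2 WT (12 and 14 nuclei). The groups did not overlap on these small counts. Of the 12 nuclei in Ago2 WT replicate 1, 5 lay in the Pcp2-led cluster 19, which is not glial and held no member of another library. This difference was not tested, and the Ago2 WT members were measured more deeply. Over all members, the summed level of the 6 astroglial markers was 284 and 400 CPM in Ago2 cKO and 323 and 841 CPM in Ago2 WT. The summed level of the 4 oligodendrocyte markers was 81.2 and 185 CPM in Ago2 cKO and 410 and 488 CPM in Ago2 WT, and each of these markers had a UMI in some member, although Mag and Gdf10 were at 0 UMIs in both Ago2 cKO libraries. At least 2 astroglial markers were found in 47 members and at least 2 oligodendrocyte markers in 29. Gad UMIs were found in 13.4% of the 447 astroglia-marker nuclei and in 12.3% of 932 oligodendrocyte-marker nuclei, and 0.895% and 0.322% of these passed the rule.

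Of 3901 genes outside the rule with at least 50 CPM in members or in other Gad nuclei, 136 were more than 2-fold higher and 156 more than 2-fold lower in members in every library. Among genes with at least 50 CPM in members, those with the largest mean log2 ratio over the 4 libraries, computed with 5 CPM added, were Gm26688 (4.11), Rora (3.90), Adamts2, a procollagen protease (3.89), Gm12198 (3.66), Sla, an adaptor of tyrosine kinase signalling (3.6), and Tbc1d4, a regulator of glucose transporter traffic (3.51). Rora averaged 32448 ± 1677 CPM in members, 2178 ± 162 CPM in other Gad nuclei, 4518 ± 231 CPM in granule-marker nuclei and 6028 ± 461 CPM in astroglia-marker nuclei. Unc5c, a netrin receptor, averaged 6301 ± 500 CPM in members and 749 ± 69.8 CPM in other Gad nuclei, and the transcription factor gene Zfp521 1034 ± 45.5 CPM and 126 ± 15.4 CPM. The same selection took in Cnpy1, Shc4, March11, Chst9 and Itga8, with log2 ratios from 2.91 to 3.35.

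Several genes that were lower in members are known from forebrain neurons. Dlx6os1, a lncRNA from the forebrain Dlx locus, averaged 21.6 ± 18.8 CPM in members and 244 ± 35.5 CPM in other Gad nuclei, and Meis2, a transcription factor of striatal and olfactory neurons, 233 ± 109 CPM and 1567 ± 252 CPM. Sox2ot averaged 158 ± 66.7 CPM in members and 1525 ± 199 CPM in other Gad nuclei. The striatal zinc finger gene Bcl11b averaged 44.7 ± 30.1 CPM in members and 244 ± 34.0 CPM in other Gad nuclei. These are contrasts with the other Gad nuclei of a hemisphere, whose regions the deposited labels do not separate. That set was defined by Gad UMIs and panel genes alone. It can therefore hold cerebellar nuclei too, such as Purkinje cells or interneurons with few panel UMIs.

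Of the lineage transcription factors fixed for this description, Ptf1a of the progenitors, Neurog1, and Skor2 of Purkinje cells had 0 UMIs in the members, which for each allows a share of up to 1.09% of nuclei with a UMI. Lhx5 had a UMI in 7.97% of members at 21.8 ± 10.5 CPM, against 2.28% of other Gad nuclei at 4.61 ± 1.04 CPM. Esrrg, an orphan nuclear receptor, averaged 1803 ± 237 CPM in members and 476 ± 51.7 CPM in other Gad nuclei, and the nuclear factors Nfia and Nfib averaged 748 ± 102 and 929 ± 170 CPM in members and 211 ± 32.5 and 414 ± 32.0 CPM in other Gad nuclei. Zic1, of cerebellar neurons, averaged 79.9 ± 8.68 CPM in members, 28.8 ± 2.53 CPM in other Gad nuclei and 157 ± 11.4 CPM in granule-marker nuclei.

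Several markers of other neurons were at 0 UMIs in the members, and others were not. Vip and Nkx2-1 of forebrain interneurons, Gata3, Otx2, Sox14 and Tal1 of midbrain and thalamic inhibitory neurons, Lmx1a of unipolar brush cells, the Purkinje gene Ppp1r17 and the replication gene Top2a were those at 0 UMIs. The 6 Purkinje markers summed to 290 and 273 CPM in Ago2 cKO members and 383 and 319 CPM in Ago2 WT members, against 519 to 927 CPM in other Gad nuclei, and Itpr1, the calcium release channel, made up most of it at 212 ± 59.5 CPM. The 6 markers of striatal spiny neurons summed to 319 and 487 CPM in Ago2 cKO members and 330 and 462 CPM in Ago2 WT members, against 887 to 1183 CPM in other Gad nuclei. Of these, Foxp1 had a UMI in 58.7% of members and averaged 295 ± 74.5 CPM in members and 658 ± 65.8 CPM in other Gad nuclei. Sst, of cortical interneurons and some Golgi cells, had 3 UMIs and Lhx6 had 5 UMIs in all members together. Adarb2, an RNA editing family gene used as a marker of cortical interneurons, averaged 3940 ± 673 CPM in members and 2499 ± 427 CPM in other Gad nuclei, so the 6 markers of cortical interneurons summed to more in members, at 3338 to 4677 CPM, than the 2246 to 3148 CPM of other Gad nuclei, ranges over the 4 libraries. The 5 granule cell markers summed to 186 and 746 CPM in Ago2 cKO members and 303 and 341 CPM in Ago2 WT members, with Ago2 cKO replicate 2 the highest.

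Subtype markers that the rule did not use divided the members. Sorcs3, a neuronal sorting receptor (chromosome 19, 48206025 to 48805505), had a UMI in 67.4% of members, and Nxph1, the secreted neurexin ligand neurexophilin 1 (chromosome 6, 8948431 to 9249032), in 45.7%. As a measure of free or attached RNA, the same genes had a UMI in 23.8% and 33.8% of the oligodendrocyte-marker nuclei. Some nuclei of that set had Gad UMIs, and its median depth of 3392 UMIs was close to the 3447 UMIs of the members. By these UMIs 120 members had Sorcs3 only, 66 had both, 60 had Nxph1 only and 30 had neither. The rule can shape these counts and shares, because some of its panel genes were unequal between the groups. Gldc was higher with Sorcs3 only in each library, averaging 538 CPM against 41.5 CPM with Nxph1 only. Pax2 and Kit were higher with Nxph1 only in each library, averaging 269 and 476 CPM against 124 and 362 CPM. How far the rule shifted the shares was not tested. The shares were similar in the libraries: Sorcs3 only made up 50% and 42.9% of Ago2 cKO members and 44.6% and 40% of Ago2 WT members, and Nxph1 only 18% and 26.8% of Ago2 cKO members and 23.1% and 20% of Ago2 WT members.

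The other genes of the lists were compared between the nuclei with Sorcs3 only and those with Nxph1 only as a description. Without the rule's genes, Sorcs3 and Nxph1, 24 of 169 genes were higher and 23 lower in the Sorcs3 group in all 4 libraries, and 122 did not keep 1 direction. Ptprk, a receptor tyrosine phosphatase, had 1141, 937, 1318 and 1146 CPM in the nuclei with Sorcs3 only (Ago2 cKO replicates 1 and 2, then Ago2 WT replicates 1 and 2) and 162, 121, 38.1 and 137 CPM in those with Nxph1 only. Grm8, a presynaptic glutamate receptor, averaged 927 ± 325 CPM in the nuclei with Sorcs3 only and 94.5 ± 61.8 CPM in those with Nxph1 only (SD, n = 4 libraries). The Sorcs3 group also held more Grid1, a delta glutamate receptor gene, at 1693 ± 351 CPM against 427 ± 225 CPM in the Nxph1 group. The semaphorin receptor gene Plxna4 averaged 1308 ± 331 CPM and 265 ± 81.2 CPM, the adhesion gene Kirrel3 8598 ± 1242 CPM and 3590 ± 1715 CPM, and the postsynaptic scaffold gene Shank3 304 ± 22.7 CPM and 96.1 ± 65.7 CPM.

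Nuclei with Nxph1 only were higher in Cdh22, a cadherin, at 64.2 ± 59.6 CPM in the Sorcs3 group and 779 ± 146 CPM in the Nxph1 group. They were also higher in Cacna2d2, a calcium channel subunit, at 42.8 ± 29.0 CPM and 290 ± 43.3 CPM. Nfib averaged 656 ± 94.6 CPM in the Sorcs3 group and 1756 ± 579 CPM in the Nxph1 group. Sox11, a transcription factor of young neurons, averaged 23.2 ± 19.0 CPM in the Sorcs3 group and 136 ± 105 CPM in the Nxph1 group, and in Ago2 cKO replicate 1 it was at 0 UMIs in the Sorcs3 group. Within cluster 17 alone, 31 of 145 genes were higher and 24 lower in the Sorcs3 group in all 4 libraries. Each gene named here for the split kept its direction there in all 4. The sets there were 96 nuclei with Sorcs3 only and 39 with Nxph1 only, 5 of these 39 in Ago2 cKO replicate 1. Sox11 rested there on 11 UMIs in the Sorcs3 group and 17 in the Nxph1 group. Gjd2, the gap junction gene of the Sorcs3 kind in adults, had a UMI in 1.09% of members.

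**Figure D2:**
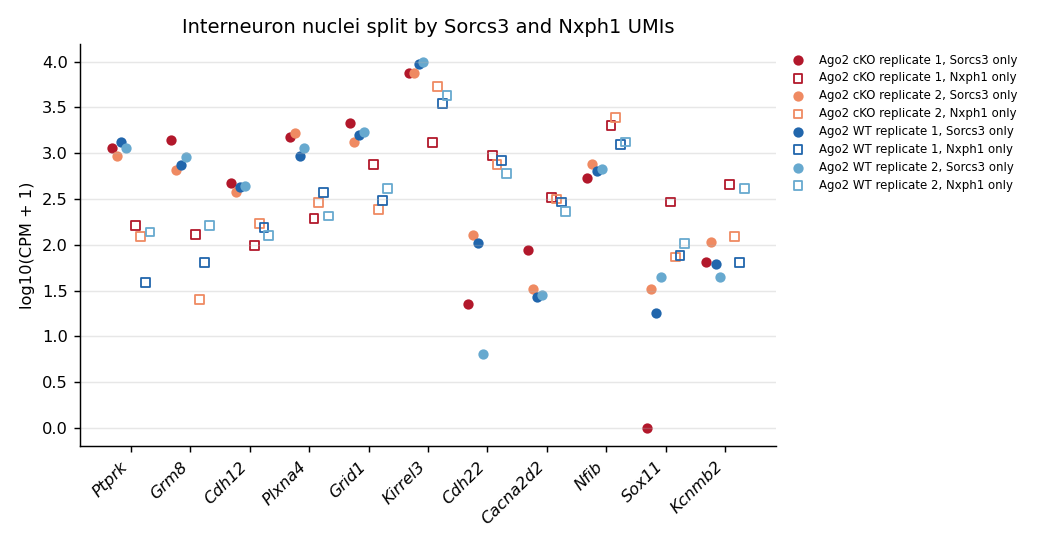
Levels of 11 genes as log10(CPM + 1) on the vertical axis, 1 point per library, in the 120 interneuron nuclei with Sorcs3 UMIs only (filled circles) and the 60 with Nxph1 UMIs only (open squares). Ptprk, Grm8 and Grid1 stand higher in the Sorcs3 group and Cdh22 and Cacna2d2 higher in the Nxph1 group in each of the 4 libraries.

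Pax2 is turned off as these interneurons mature, and the 90 members with a Pax2 UMI were compared with the 186 without as a description, since Pax2 is a gene of the rule. A nucleus with Pax2 needs only 2 more panel genes, so the panel genes are not compared between these sets. A nucleus without Pax2 needs 3 of the others, which include Gldc, a gene higher in the nuclei with Sorcs3 only. Levels of Sorcs3 and of genes that vary with it can therefore depend on the rule, within cluster 17 as well. Pvalb, a calcium-binding protein of mature interneurons, averaged 19.4 ± 16.5 CPM with Pax2 and 85.8 ± 34.8 CPM without (SD, n = 4 libraries). Sorcs3 averaged 690 ± 228 CPM with Pax2 and 1825 ± 457 CPM without. Dcc, the netrin receptor, averaged 1801 ± 917 CPM with Pax2 and 373 ± 71.3 CPM without, Robo1, the Slit receptor, 836 ± 205 CPM and 300 ± 99.7 CPM, and Sox11 83.5 ± 32.3 CPM and 32.1 ± 23.9 CPM. Slc6a5 stood at 80.7, 80.7, 88.7 and 88.1 CPM with Pax2 and at 0, 20.9, 10.7 and 21.1 CPM without. The nuclei of cluster 7 were 28 of the 90 with Pax2, so the contrast was repeated within cluster 17, for 53 nuclei with Pax2 and 153 without. There 23 of 164 listed genes outside the rule were higher and 21 lower with Pax2 in all 4 libraries. Among these, Sorcs3 was lower and Slc6a5 and Dcx, a microtubule protein of migrating neurons, were higher. Slc6a5 rested on 14 UMIs with Pax2 and 9 without. Sox11 and Dcc were higher in 3 of 4 libraries and Pvalb was lower in 3 of 4.

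Maturity and type markers had these shares among the members. Dcx had a UMI in 31.5% of members, against 13.8% of oligodendrocyte-marker nuclei. Pvalb had a UMI in 17.8%, against 0.644%, and Slc6a5 in 13.0%, against 1.07%. Klhl1, of interneurons near the Purkinje cell layer, had a UMI in 9.06%, against 8.05%, and so did not stand above the background. Lgi2, a secreted synaptic protein used as a Golgi cell marker, had a UMI in 7.61%, against 2.47%, and Grm2, the Golgi cell glutamate receptor, in 2.54%, against 1.18%.

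The share of interneuron nuclei was compared between genotypes to ask whether the number of these cells differed. Members were 1.51% (exact 95% interval 1.12% to 1.98%) and 1.72% (1.30% to 2.23%) of the kept nuclei in Ago2 cKO, against 1.94% (1.503% to 2.47%) and 1.70% (1.40% to 2.06%) in Ago2 WT. Intervals cover counting error only. The groups overlapped, with means of 1.61% ± 0.148 in Ago2 cKO and 1.82% ± 0.169 in Ago2 WT (SD, n = 2 libraries each). The difference of -0.211 percentage points had an exact two-sided permutation p of 0.667, and 2 libraries against 2 cannot give a p under 0.333. With every nucleus thinned to 1000 UMIs the shares were 0.357% and 0.470% in Ago2 cKO and 0.369% and 0.289% in Ago2 WT, a difference of 0.085. The share of cluster 17, which the rule did not define, was 2.32% and 2.30% in Ago2 cKO and 1.91% and 2.00% in Ago2 WT (difference 0.357, exact permutation p 0.333). In dissociated nuclei, fewer cells of a type and fewer nuclei of it captured cannot be told apart.

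**Figure D3:**
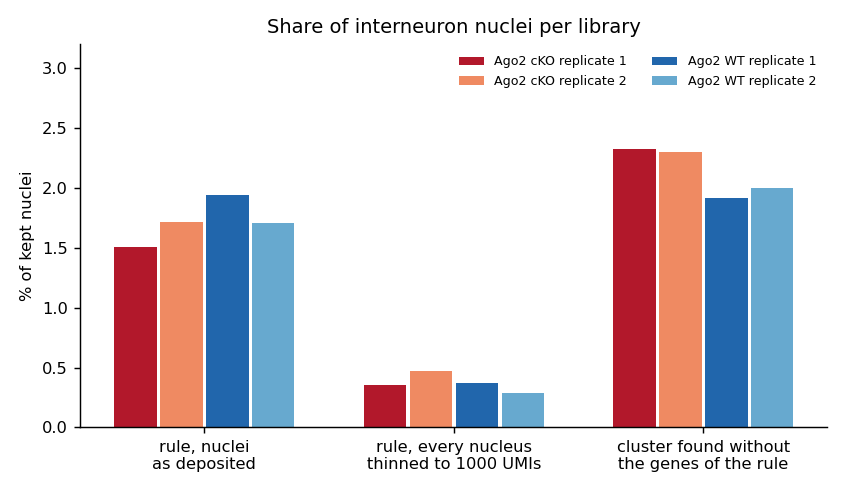
Share of interneuron nuclei in percent of the kept nuclei of a library, for the rule as deposited, for the rule after thinning every nucleus to 1000 UMIs, and for cluster 17. Each bar is 1 library, Ago2 cKO left of Ago2 WT, and the bars of Ago2 cKO lie above those of Ago2 WT for cluster 17 only.

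The subtype shares of the members were compared between genotypes in the same way, where 0.333 is the smallest p that 2 libraries against 2 can give. Sorcs3 had a UMI in 72.0% and 66.1% of Ago2 cKO members and 66.2% and 66.7% of Ago2 WT members, a difference of 2.63 percentage points (exact permutation p 1). Nxph1 had a UMI in 40% and 50% of Ago2 cKO members and 44.6% and 46.7% of Ago2 WT members, a difference of -0.641 (exact permutation p 1). Pvalb had a UMI in 24% and 14.3% of Ago2 cKO members and 18.5% and 16.2% of Ago2 WT members, a difference of 1.82 (exact permutation p 1). Pax2 had a UMI in 46.0% and 30.4% of Ago2 cKO members and 32.3% and 27.6% of Ago2 WT members, with Ago2 cKO replicate 1 above the rest. Thinned to 2000 UMIs, which 231 members reached, the differences were 7.37 for Sorcs3, 8.29 for Nxph1 and 8.01 for Pvalb, with exact permutation p of 0.667, 0.333 and 0.667. For Nxph1 the thinned shares were 36.1% and 47.4% in Ago2 cKO, against 32.2% and 34.7% in Ago2 WT, without overlap. The level of Nxph1 in CPM over all members, given below, went the other way and was lower in Ago2 cKO. Slc6a5 had a UMI in 10% and 10.7% of Ago2 cKO members and in 12.3% and 16.2% of Ago2 WT members, without overlap (difference -3.89, exact permutation p 0.333). Thinned to 2000 UMIs, the Slc6a5 shares were 2.78% (1 of 36) and 2.63% (1 of 38) in Ago2 cKO. In Ago2 WT they were 6.78% (4 of 59) and 9.18% (9 of 98). Grm2 had a UMI in 0 of 50 and 0 of 56 Ago2 cKO members and in 1 of 65 and 6 of 105 Ago2 WT members (exact permutation p 0.333). With 2 libraries against 2, any groups without overlap give an exact permutation p of 0.333. Slc6a5, Grm2 and the thinned Nxph1 shares are named from a longer list of markers. In that list Dcx and Sox11 also did not overlap as deposited, and Ptprk and Sox11 did not after thinning. The rest, such as Klhl1 and Lgi2, overlapped or tied at both depths. For levels in CPM, the groups did not overlap for 34.6% of all genes tested.

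Gene expression in the members was compared between genotypes to ask whether interneurons change in mice whose VGLUT2 neurons were to lose Ago2. No gene passed. UMIs were summed per library over members and compared with edgeR's quasi-likelihood test, and 0 of 4401 genes (0%) had a Benjamini-Hochberg adjusted p under 0.05, the rule's 10 genes not counted. An unadjusted p under 0.05 was reached by 201 genes (4.57%), 84 higher and 117 lower in Ago2 cKO, and DESeq2 called 0 genes with 48 at an unadjusted p under 0.05. With 1 library left out, edgeR called 15 genes without Ago2 cKO replicate 1, 2 without Ago2 cKO replicate 2, 4 without Ago2 WT replicate 1 and 13 without Ago2 WT replicate 2. Of the 4401 genes, 2217 had a positive and 2184 a negative log2 change of Ago2 cKO over Ago2 WT, with a median of 0.0046. The median standard error (SE) was 0.356, and the 95% interval of the change lay within 1 log2 unit of 0 for 43.3% of genes and within 2 for 95.8%. The Ago2 cKO and Ago2 WT libraries did not overlap for 34.6% of genes.

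Ago2 itself (chromosome 15, 73095844 to 73184935) had 7 and 17 UMIs in Ago2 cKO members and 21 and 42 UMIs in Ago2 WT members, which is 40.6 and 82.9 CPM against 73.0 and 83.7 CPM. Its log2 change was -0.34 (SE 0.39, edgeR unadjusted p 0.400), and without Ago2 cKO replicate 1 it was 0.049. These are cells outside the intended deletion, the exons removed are not stated, so tags from the 3′ end do not check the deletion. Slc17a6, the driver gene, had 3 and 2 UMIs in Ago2 cKO members and 1 and 4 UMIs in Ago2 WT members, a share of 3.26% of members with a UMI against 3.65% of oligodendrocyte-marker nuclei.

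The genes with the smallest p were mostly lower in Ago2 cKO, and several are known from glia. Cst3, the secreted protease inhibitor cystatin C, had 23.2 and 34.1 CPM in Ago2 cKO members and 122 and 106 CPM in Ago2 WT members (log2 change -1.95, SE 0.40). Mbp had 52.2 and 141 CPM in Ago2 cKO and 306 and 341 CPM in Ago2 WT (-1.72, SE 0.36). Apoe, the astrocyte lipid carrier, had 58.0 and 107 CPM in Ago2 cKO and 205 and 193 CPM in Ago2 WT (-1.25, SE 0.32), and Ckb, brain creatine kinase, 58.0 and 34.1 CPM and 184 and 108 CPM (-1.65, SE 0.43). Each of these 4 genes was lower in both Ago2 cKO libraries than in both Ago2 WT libraries. They were chosen by p, and the groups did not overlap for 34.6% of all genes. Each had an adjusted p of 0.995 by edgeR's quasi-likelihood test. With 1 library left out, Mbp passed without Ago2 cKO replicate 2, Ago2 WT replicate 1 or Ago2 WT replicate 2 (edgeR adjusted p 0.0209, 0.00612 and 0.0114), and Ckb without Ago2 cKO replicate 1 or Ago2 WT replicate 2 (0.034 and 0.00447).

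These genes were also followed in other sets of nuclei. In the other Gad nuclei, which are not cerebellar interneurons by the rule, the log2 changes were -1.04 for Cst3, -1.11 for Mbp, -1.22 for Apoe and -0.43 for Ckb. Within cluster 17 members alone, where the glia-rich nuclei of other clusters are left out, Mbp had a log2 change of -1.73, Ckb of -1.29 and Apoe of -0.51. Without the 18 members that had at least 3 astroglial markers, Cst3 had a change of -1.56 and Mbp of -1.32. The part of free or attached glial RNA in these values was not tested beyond these measurements.

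Gpc5, Slc7a11, Cemip and Ndst4 were also among the 10 genes with the smallest p. Gpc5, a cell-surface proteoglycan abundant in astrocytes, had 551 and 424 CPM in Ago2 cKO members and 995 and 883 CPM in Ago2 WT members (log2 change -0.96, SE 0.22). Among cluster 17 members its change was 0.12, and over all members it passed without Ago2 cKO replicate 1 (edgeR adjusted p 0.0225). Slc7a11, the cystine transporter, had 2 and 1 UMIs in Ago2 cKO members and 16 and 29 UMIs in Ago2 WT members (log2 change -2.78, SE 0.66, edgeR adjusted p 0.995). Its edgeR unadjusted p was 0.0889 without Ago2 WT replicate 1 and 0.177 without Ago2 WT replicate 2. Cemip, a hyaluronan-binding protein, had a log2 change of -1.45 (SE 0.39), and without the members that had at least 3 astroglial markers it was -0.14.

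Ndst4, a heparan sulphate modifying enzyme, was the 1 gene of the 10 that was higher in Ago2 cKO. It had 7 and 39 UMIs in Ago2 cKO members and 6 and 4 UMIs in Ago2 WT members, with a log2 change of 3.15 (SE 0.72). The 39 UMIs of Ago2 cKO replicate 2 came from 2 nuclei, and without that library the log2 change was 1.57 with an edgeR unadjusted p of 0.248. Ndst4 passed when any of the other 3 libraries was left out (edgeR adjusted p 2.38e-09 to 0.0202).

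**Figure D4:**
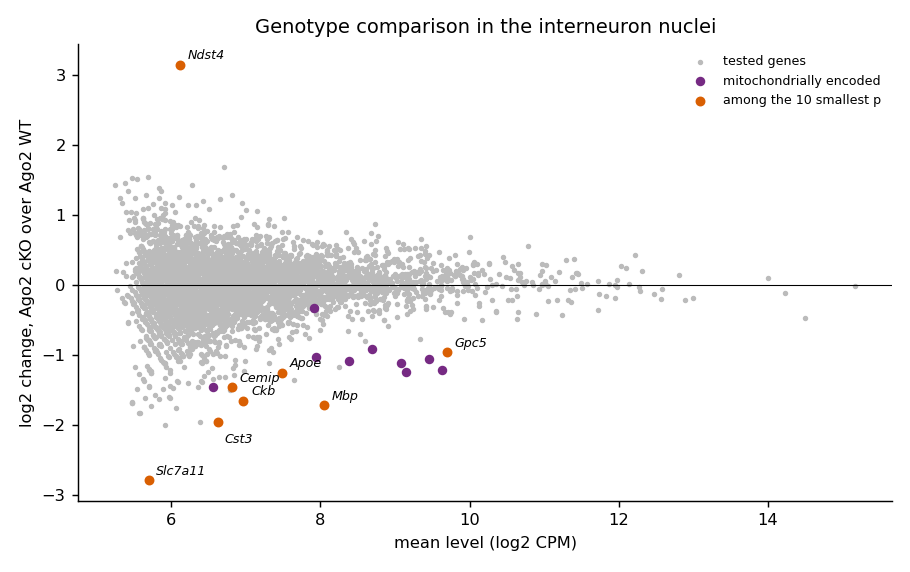
Log2 change of Ago2 cKO over Ago2 WT on the vertical axis against mean level as log2 CPM on the horizontal axis, for the 4401 genes tested in the interneuron nuclei (grey), the 9 mitochondrially encoded genes (purple) and 8 of the 10 genes with the smallest p (orange). The orange points lie below 0 except Ndst4, the purple points all lie below 0, and 0 genes passed the adjusted threshold.

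**Figure D5:**
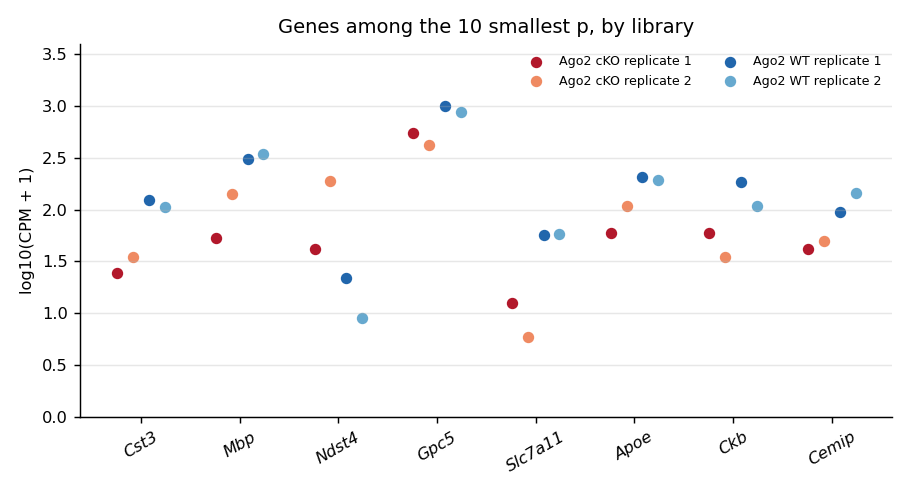
Levels of 8 of the 10 genes with the smallest p as log10(CPM + 1) on the vertical axis, 1 point per library, Ago2 cKO left of Ago2 WT. For each of the 8 genes the Ago2 cKO libraries do not overlap with the Ago2 WT libraries, which held for 34.6% of all genes tested, and the genes were chosen by p. Ndst4 is the only gene of these with Ago2 cKO above.

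Described by list, the members' own identity genes lay near or slightly above 0, each list with 0 genes past the adjusted threshold. Of 13 lineage transcription factors tested outside the rule, 11 had positive changes, with a median of 0.25 beside 0.0046 over all genes. Foxp2, a transcription factor of Purkinje and other neurons, had 63.8 and 112 CPM in Ago2 cKO and 31.3 and 45.8 CPM in Ago2 WT (log2 change 1.14, SE 0.42), while Rora had 34258 and 30835 CPM in Ago2 cKO and 33477 and 31223 CPM in Ago2 WT (-0.0056, SE 0.15). Of 11 subtype genes, 9 were positive with a median of 0.20. Nxph1 had 1102 and 1209 CPM in Ago2 cKO and 1756 and 1444 CPM in Ago2 WT (-0.48, SE 0.20), and Sorcs3 1839 and 1291 CPM in Ago2 cKO and 1287 and 1229 CPM in Ago2 WT (0.30, SE 0.21). The groups did not overlap for Nxph1 or Sorcs3, beside 34.6% of all genes. For Nxph1 the share of members with a UMI overlapped as deposited and was higher in Ago2 cKO after thinning, against the direction of its level.

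Of 20 genes of GABA and glycine signalling, 13 were positive with a median of 0.17. Glra2, the embryonic glycine receptor subunit, had 92.8 and 122 CPM in Ago2 cKO and 27.8 and 65.8 CPM in Ago2 WT (log2 change 1.08, SE 0.41). Slc32a1, the vesicular GABA transporter, had a change of 1.18 (SE 0.60), on 7 and 10 UMIs in Ago2 cKO and 8 and 7 UMIs in Ago2 WT. The gephyrin gene Gphn, the scaffold of inhibitory synapses, had 963 and 794 CPM in Ago2 cKO and 831 and 755 CPM in Ago2 WT (0.13, SE 0.20).

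Among glutamate receptors and their scaffolds, 20 of 29 genes had positive changes, with a median of 0.083. The AMPA receptor subunit Gria4 had 3690 and 3275 CPM in Ago2 cKO and 3832 and 3012 CPM in Ago2 WT (log2 change 0.011, SE 0.19). The scaffold gene Shank2 had 1903 and 1793 CPM in Ago2 cKO and 1541 and 954 CPM in Ago2 WT (0.56, SE 0.24). Its groups did not overlap, beside 34.6% of all genes, and it had the smallest p of this list. Gria1 had a change of 0.59 (SE 0.29) and Grik4 of 0.59 (SE 0.32).

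Ion channel genes split 17 positive to 12 negative, with a median of 0.015, and presynaptic release genes 11 to 8, with a median of 0.070. Kcnip1, a potassium channel partner, had a change of -0.74 (SE 0.40), Cacna2d1, a calcium channel subunit, of 0.56 (SE 0.32), and Kcnma1, the large-conductance potassium channel, of 0.18 (SE 0.19). Among presynaptic genes Unc13a, a vesicle priming factor, had a change of 0.58 (SE 0.34), and Erc2 and Rims1, of the active zone, of 0.21 (SE 0.21) and 0.15 (SE 0.19). Adhesion genes and synapse organisers split 12 positive to 18 negative, with a median of -0.055. In this list Cdh6, a cadherin, had 197 and 161 CPM in Ago2 cKO and 83.5 and 108 CPM in Ago2 WT (0.86, SE 0.28), and Pcdh7, a protocadherin, 319 and 492 CPM and 549 and 823 CPM (-0.77, SE 0.27). Nrxn3, a neurexin, had a change of 0.098 (SE 0.15).

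Guidance genes were examined because these interneurons migrate and extend axons at this age. Of 30 tested, 19 had positive changes with a median of 0.11. The semaphorin receptor gene Plxnc1 had 197 and 117 CPM in Ago2 cKO and 76.5 and 69.7 CPM in Ago2 WT (log2 change 1.08, SE 0.33), and Sema5b, a transmembrane semaphorin, 81.2 and 127 CPM and 55.6 and 37.9 CPM (1.20, SE 0.38). Plxna4 had 1120 and 970 CPM in Ago2 cKO and 776 and 711 CPM in Ago2 WT (0.48, SE 0.20). For these 3 genes both Ago2 cKO libraries were above both Ago2 WT libraries, beside 34.6% of all genes whose groups did not overlap, and none passed the adjustment (edgeR adjusted p 0.995 each). Unc5c had a change of 0.14 (SE 0.16).

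Of 8 genes for signals to vessels, 3 were positive with a median of -0.041. Angpt1, a ligand of the endothelial receptor Tie2, had 162 and 141 CPM in Ago2 cKO and 163 and 145 CPM in Ago2 WT (log2 change -0.033, SE 0.27), and Bmp6 a change of -0.61 (SE 0.31). Of 10 genes of the miRNA pathway, 7 were positive with a median of 0.13, with the GW182 gene Tnrc6a at -0.42 (SE 0.26). Of 6 glucocorticoid and fasting response genes, 5 were positive, with Fkbp5 at 69.6 and 43.9 CPM in Ago2 cKO and 27.8 and 33.9 CPM in Ago2 WT (0.81, SE 0.48), Zbtb16 at 1.04 (SE 0.46) and the mineralocorticoid receptor gene Nr3c2 at -0.69 (SE 0.30). Homer1 was the only immediate early gene with enough UMIs to be tested, at 0.59 (SE 0.35). Of 6 genes of immature neurons, 5 were positive, with Elavl3 at 0.51 (SE 0.26) and Dcx at 0.23 (SE 0.30). As a share of nuclei, Dcx had a UMI in 30% and 28.6% of Ago2 cKO members and in 33.8% and 32.4% of Ago2 WT members, and Sox11 in 10% and 12.5% of Ago2 cKO members and in 20% and 18.1% of Ago2 WT members (exact permutation p 0.333 each). The Ago2 WT members were deeper. Thinned to 2000 UMIs, Dcx stood at 16.7% and 13.2% in Ago2 cKO and 20.3% and 14.3% in Ago2 WT, with overlap. Thinned in the same way, Sox11 stood at 8.33% and 5.26% in Ago2 cKO (3 and 2 nuclei). In Ago2 WT it stood at 8.47% and 14.3% (5 and 14 nuclei).

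All 9 mitochondrially encoded genes tested had negative changes, with a median of -1.08, and 7 had an unadjusted p under 0.05. mt-Co3, of cytochrome oxidase, had 354 and 458 CPM in Ago2 cKO members and 1339 and 552 CPM in Ago2 WT members (log2 change -1.22, SE 0.37). Ago2 WT replicate 1, the library with the most barcodes over the mitochondrial maximum, was the highest for each of these 9 genes. In the other Gad nuclei 11 of 12 such genes were negative, with a median of -1.08.

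The genotype effect was compared directly between members and other Gad nuclei, with the library as a block, to ask whether interneurons differed from other inhibitory neurons. No gene of 10039 passed (0%), with a smallest adjusted p of 0.969 by edgeR's quasi-likelihood test, and 422 genes (4.2%) had an unadjusted p under 0.05. With 1 library left out, 4 genes passed without Ago2 cKO replicate 1, 9 without Ago2 cKO replicate 2, and 2 without Ago2 WT replicate 1 and 2 without Ago2 WT replicate 2. The smallest p was that of Ndst4, with a difference of 3.25 log2 units (SE 0.68). In the other Gad nuclei alone 0 of 10664 genes (0%) passed and 520 (4.88%) had an unadjusted p under 0.05. The difference for Foxp2 was 1.505 (SE 0.43), with a change of 1.14 in members and -0.42 in other Gad nuclei.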

How the data were processed

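The authors deposited 1 matrix per library of whole-number UMI counts per gene and nucleus barcode (17802 barcodes, 32286 features). Per the submitters' processing notes the tools were Cell Ranger 4.0.0 and Seurat 3.2.3 on GRCm38, with 10x 3′ v3 chemistry per the labels' protocols. The annotation and intron setting are not given in the sources used here. The quality filters required 500 UMIs or more and a mitochondrial share below 5%, and the members were taken by the stated rule from these counts. The members, gene lists and named genes were chosen with earlier results of these data known.

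Scrublet's automatic threshold marked 3, 2, 0 and 0 nuclei of the Ago2 cKO and Ago2 WT libraries and so had not worked, and doublets were not removed. The removal of the highest scores, at 0.8% per 1000 barcodes, is an alternative. Clusters came from scanpy 1.11.5 (10000 UMIs per nucleus, 2000 variable genes, 30 components, 15 neighbours) and the Leiden algorithm in igraph 0.11.9 at resolution 1.

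Counts summed per library entered edgeR 4.0.16 in R 4.3.3 (filterByExpr, TMM, two-sided quasi-likelihood test, Benjamini-Hochberg threshold 0.05), with DESeq2 1.42.0 as an alternative. The fit was tested on simulated data. Single values were compared with exact permutation tests. CPM are counts scaled to 1000000 UMIs, given as mean ± SD over libraries. Genes named by rule are those of the rule for members, Ago2, Slc17a6 and Mbp, the 10 with the smallest p, in each list the 3 with the smallest p and the 4 with the highest level, and the 20 of at least 50 CPM with the largest ratio over other Gad nuclei (5 CPM added). Some genes so chosen are not reported here, and other genes were chosen after their values were seen. Gene positions are from GENCODE on GRCm38.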

Additional observations from a re-analysis of the deposited data

How the results depend on the processing

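The count of genes called between genotypes was 0 under another size factor, DESeq2, the removal of high Scrublet scores, at least 4 panel genes, at least 2 Gad UMIs, the removal of nuclei with 3 or more astroglial markers, cluster 17 in place of the rule, and members inside cluster 17 only (these last 2 settings were chosen after seeing the data). Without the filter on low counts it was 14, with 2 higher and 12 lower in Ago2 cKO, Ndst4, Mbp, Cst3, Gpc5 and Ckb among them. Leaving out 1 library gave 2 to 15 genes: 15 without Ago2 cKO replicate 1, 2 without Ago2 cKO replicate 2, 4 without Ago2 WT replicate 1 and 13 without Ago2 WT replicate 2, where the lone library is assumed to vary like the others. Mbp passed without Ago2 cKO replicate 2, Ago2 WT replicate 1 or Ago2 WT replicate 2 (edgeR adjusted p 0.0209, 0.00612 and 0.0114; 0.000224 to 0.999 over all settings). The count of genes whose effect differed from other Gad nuclei was 2 without the filter on low counts and 2 to 9 with 1 library left out. The causes were not tested.

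The difference in the share of interneuron nuclei was -0.330 to -0.0913 percentage points with 1 library left out, 0.085 after thinning to 1000 UMIs and 0.357 for cluster 17, and the settings of doublets, panel genes, Gad UMIs and mitochondrial maximum kept it negative. The difference for Sorcs3 ranged from -0.339 to 5.59 with 1 library left out and was 7.37 after thinning, and that for Nxph1 from -5.64 to 4.36 and 8.29. For Pax2 the range was 0.394 to 16.0 and for Pvalb -3.04 to 6.67. Of 12 genes followed one by one, 3 values reversed: Gpc5 at 0.163 for cluster 17 and 0.120 for members inside it, and Ago2 at 0.0486 without Ago2 cKO replicate 1 (-0.971 to 0.0486 with each library left out). With the replicate number as a block, 0 genes were called and 213 had an unadjusted p under 0.05. Same-numbered libraries did not deviate together (r = 0.0538 over 4411 genes), so the numbers do not establish pairs. With 50 to 105 members per library, depth limits the fits to genes of moderate level.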
